A study of Mus musculus with 2 samples.

Results

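The miR-130/miR-301 family (Mir130a, Mir130b, Mir301 and Mir301b) and the miR-148/miR-152 family (Mir148a, Mir148b and Mir152) are 7 of the 2202 microRNA (miRNA) genes counted in the hippocampus of 5xFAD/CAST mice. The genes were found by their M21 symbols, and all 7 matched. The set was chosen by the wide difference of Mir301 and Mir148b between the libraries, so every value that sets one library against the other is given as a description, with no test. The 2 libraries, biological replicates 1 and 2 of a single group, came from female adults aged 8 to 10 months, and RNA below 30 nt was sequenced. Both carry the strain label 5xFAD/CAST, both biosamples are listed under the same donor record, and the tissue is labelled a layer of hippocampus. The 5xFAD transgenes are driven by the neuronal Thy1 promoter and lead to amyloid plaques, and CAST is short for a strain derived from Mus musculus castaneus. No group without the transgenes, of another age or of another tissue was analysed here, and the labels do not say how the strains were crossed or whether tissue was pooled.

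A mature miRNA guides an Argonaute protein to messenger RNAs that pair with its seed, bases 2 to 8 from its 5′ end, and lowers their translation and stability. Genes with the same seed form a family and can act on overlapping targets. The miR-130/miR-301 family is known for repressing Pparg, a nuclear receptor that regulates fat cell formation. The miR-148/miR-152 family is known for repressing Dnmt1, the maintenance DNA methyltransferase.

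The mature 3p arms are shown first because they place the genes in families and show how little separates the closest relatives. Sequences are from RefSeq on GRCm38.p6, which holds hairpins for 7 of the 7 genes and 3p arms for 6, Mir301b being the gene without one. Capitals mark the seed.
miR-130a-3p: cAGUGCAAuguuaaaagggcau
miR-130b-3p: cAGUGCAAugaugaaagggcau
miR-301a-3p (gene Mir301): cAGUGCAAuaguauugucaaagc
miR-148a-3p: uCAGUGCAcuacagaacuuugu
miR-148b-3p: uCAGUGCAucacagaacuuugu
miR-152-3p: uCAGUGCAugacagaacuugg

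The families are linked in sequence as well. The seed of miR-130/miR-301 is AGUGCAA and that of miR-148/miR-152 is CAGUGCA, and the 6 bases AGUGCA lie in both. All 6 arms hold CAGUGCA, at bases 1 to 7 in Mir130a, Mir130b and Mir301 and at bases 2 to 8 in Mir148a, Mir148b and Mir152, so the same letters are shifted by a single base. Outside the seed the relatives differ by few bases or by many. Counting positions from 1 at the 5′ end, miR-130a and miR-130b differ at 2 of 22 positions (U11A and A13G), miR-148a and miR-148b at 2 of 22 (C9U and U10C), and miR-148b and miR-152 at 2 of the 21 compared (C10G and U20G). Mir301 stands further off, with 10 of 22 positions unlike miR-130a, the first of them being G10A. No 3p arm of these 6 occurs whole in any other of the 1005 RefSeq hairpins.

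Each count covers a whole hairpin, so both of its arms may contribute. The hairpins of the 2 genes that differed most between the libraries, and of Mir130a, the most abundant of the set, are given with the annotated mature arms in capitals.
Mir301: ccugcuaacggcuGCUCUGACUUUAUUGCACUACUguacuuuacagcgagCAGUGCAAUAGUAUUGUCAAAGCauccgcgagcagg
Mir148b: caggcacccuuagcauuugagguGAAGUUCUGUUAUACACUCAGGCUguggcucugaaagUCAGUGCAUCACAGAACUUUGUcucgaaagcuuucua
Mir130a: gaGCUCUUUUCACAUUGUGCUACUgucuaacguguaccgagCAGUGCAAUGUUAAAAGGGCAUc

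The 5p arms group the genes more finely than the 3p arms do. Mir301 and Mir301b share the 5p seed CUCUGAC, and their 5p arms differ at 3 of 22 positions (U10A, U11G and A12G). Mir148a and Mir148b share the 5p seed AAGUUCU, whereas that of Mir152 is AGGUUCU. Mir130a and Mir130b have 5p seeds of their own, CUCUUUU and CUCUUUC.

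The genes lie at 6 places on 5 chromosomes of mm10, and 5 of the 7 lie in introns of a protein-coding gene on the same strand. Mir301 (ENSMUSG00000065589.1) lies at chr11:87113004-87113089 on the plus strand, in an intron of Ska2, a gene of the spindle and kinetochore complex. Mir148b (ENSMUSG00000065560.1) lies at chr15:103285125-103285221, plus strand, in an intron of Copz1. Mir152 (ENSMUSG00000065515.1) lies at chr11:96850393-96850465, plus strand, in an intron of Copz2. Copz1 and Copz2 are paralogs that encode the zeta subunits of the COPI vesicle coat, so the related miRNAs sit in related hosts. Mir130b (ENSMUSG00000065572.1, chr16:17124061-17124142) and Mir301b (ENSMUSG00000076288.1, chr16:17124400-17124496) lie 257 bp apart on the minus strand, both in an intron of 2610318N02Rik. Mir130a (ENSMUSG00000065484.1, chr2:84741115-84741178, minus strand) and Mir148a (ENSMUSG00000065505.1, chr6:51269812-51269910, minus strand) lie outside other M21 genes. Mir301b and Mir130b are each other's sole annotated miRNA neighbours within 10000 bp, and the other 5 genes have none.

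The libraries held 9962659 and 12761689 reads, and 3135960 and 4377622 of these were assigned to miRNA genes on the sense strand. Levels are given in CPM, which scales the sense counts to an equal sum in each library, so that 1 count is 0.319 CPM in replicate 1 and 0.228 CPM in replicate 2. Reads that mapped to several places, 36.3% and 41.7% of all reads, are outside the gene counts. A miRNA read spans the whole mature molecule, and the 3p arms above are 21 to 23 nt long, so counts were compared between genes without division by length. How well each sequence is captured in a library was not measured, and an order of genes is an order of counts. Intervals are exact Clopper-Pearson 95% limits and cover counting error only, with no variation between libraries. PCR copies of a molecule are counted as separate reads, so the limits can be too narrow even for counting error. Of 18 listed neuronal miRNA genes, 18 had counts in at least 1 library and 14 had at least 10 in both, summing to 72815 and 70080 CPM. Mir124a-1, Mir124a-2 and Mir124a-3 had 2, 0 and 2 counts in replicate 1 and 8, 2 and 3 in replicate 2.

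Together the 7 genes held 0.138% ± 0.0312 of the counts (SD, n = 2), and the miR-130/miR-301 family accounted for most of it. That family held 0.106% (interval 0.103% to 0.110%) in replicate 1 and 0.140% (0.137% to 0.144%) in replicate 2. The miR-148/miR-152 family held 0.00982% (0.00876% to 0.0110%) in replicate 1 and 0.0201% (0.0188% to 0.0215%) in replicate 2. Both family shares were thus lower in replicate 1, and the counting intervals of the 2 libraries do not overlap for either family. The sums include Mir301 and Mir148b, on which the set was chosen, so nothing is read from this difference. Without Mir301 the miR-130/miR-301 share was 0.104% (0.101% to 0.108%) in replicate 1 and 0.105% (0.102% to 0.108%) in replicate 2, with overlap. Without Mir148b the miR-148/miR-152 share was 0.00816% (0.00719% to 0.00923%) and 0.0129% (0.0119% to 0.0140%), without overlap. In bulk tissue, fewer cells of a type and less RNA per cell cannot be told apart. All 7 genes had counts in both libraries, and 6 of the 7 reached 10 counts in each.

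Mir130a was the leading gene of the set in both libraries and the steadiest of those with many counts. It had 3007 counts in replicate 1, or 959 CPM, and 4285 counts in replicate 2, or 979 CPM, for a mean of 969 ± 14.1 CPM (SD, n = 2). The 2 values differ by less than their counting intervals (925 to 994 and 950 to 1009 CPM). Mir130a ranked 96 of 2202 genes by mean level, between Mir337 at 986 ± 409 and Mir376a at 967 ± 260 CPM. Both of these neighbours differed far more between the libraries than Mir130a did.

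Mir130b, the close relative that differs from Mir130a at 2 bases of the 3p arm, was at a small part of its level. It had 265 and 302 counts, or 84.5 and 69.0 CPM in replicates 1 and 2 (76.7 ± 11.0 CPM). Counts of Mir130a exceeded those of Mir130b 11.3 times in replicate 1 (interval 10.0 to 12.9) and 14.2 times in replicate 2 (12.6 to 16.0). Mir130b was the only member with at least 10 counts in each library that was higher in replicate 1 under all 6 ways of scaling that were tried. Its neighbours in level were Mir29b-2 at 76.9 ± 30.8 and Mir211 at 74.8 ± 6.94 CPM.

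Mir301b, which shares its host gene with Mir130b, was near the limit of counting. It had 5 counts in replicate 1 and 6 in replicate 2, or 1.59 and 1.37 CPM (1.48 ± 0.158 CPM). A count of 0 would allow up to 3 counts, or 0.957 CPM in the first library and 0.685 CPM in the second. Mir130b had 53.0 times the counts of Mir301b in replicate 1 (interval 22.4 to 165) and 50.3 times in replicate 2 (22.9 to 138). The unequal counts of these neighbouring genes were therefore of like size in both libraries, within wide intervals. Mir301b was next to Gm44456 (1.51 ± 0.777 CPM) and Mir511, which had the same 5 and 6 counts.

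Mir301 was the gene of the set that varied most. It had 57 counts in replicate 1, or 18.2 CPM (13.8 to 23.5), and 1538 counts in replicate 2, or 351 CPM (334 to 369). The mean was 185 ± 236 CPM, with an SD above the mean, so the mean describes neither library. Its rank was 288 in replicate 1 and 139 in replicate 2. The genes next to its mean level, Mir467e at 185 ± 26.0 and Mir340 at 177 ± 65.4 CPM, lay much closer together between the libraries. Counts of Mir130a were 52.8 times those of Mir301 in replicate 1 (interval 40.6 to 69.8) and 2.79 times in replicate 2 (2.63 to 2.96). Against Mir301b, its closest relative by the 5p arm, Mir301 had 11.4 times the counts in replicate 1 (4.61 to 36.4) and 256 times in replicate 2 (117 to 700).

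In the miR-148/miR-152 family all 3 genes were lower in replicate 1, by unequal amounts. Mir152 had 197 and 369 counts, or 62.8 and 84.3 CPM (73.6 ± 15.2 CPM). Mir148b had 52 and 317 counts, or 16.6 CPM (12.4 to 21.7) and 72.4 CPM (64.7 to 80.8), with a mean of 44.5 ± 39.5 CPM. Mir148a had 59 and 196 counts, or 18.8 CPM (14.3 to 24.3) and 44.8 CPM (38.7 to 51.5), with a mean of 31.8 ± 18.4 CPM. The intervals of Mir148a and Mir148b do not overlap between the libraries, and those of Mir152 (54.4 to 72.2 and 75.9 to 93.3 CPM) also stay apart, by a smaller gap. Next to these genes in mean level were Mir211 and Snord43 (71.4 ± 17.6 CPM) for Mir152, Mir551b (44.6 ± 4.06) and Mir184 (41.9 ± 2.46) for Mir148b, and Mir3547 (33.3 ± 5.71) and Mir6769b (30.0 ± 9.55) for Mir148a.

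The order of the 7 levels held at its ends and not in its middle. By mean CPM it ran Mir130a, Mir301, Mir130b, Mir152, Mir148b, Mir148a and Mir301b. The ranges over the 2 libraries overlapped for 4 of the 6 neighbouring pairs, namely Mir301 with Mir130b, Mir130b with Mir152, Mir152 with Mir148b and Mir148b with Mir148a. They did not overlap between Mir130a and Mir301, whose means differ 5.24 times, or between Mir148a and Mir301b, whose means differ 21.4 times. In replicate 1 Mir301 stood below Mir130b, Mir152 and Mir148a, and in replicate 2 only Mir130a stood above it. The place below Mir148a in replicate 1 rests on 57 against 59 counts, and the counting intervals overlap. Mir148b moved from below Mir148a in replicate 1 (0.881 times its counts, interval 0.595 to 1.30) to above it in replicate 2 (1.62 times, 1.35 to 1.94), and the first of these intervals includes equal counts.

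**Figure D1:**
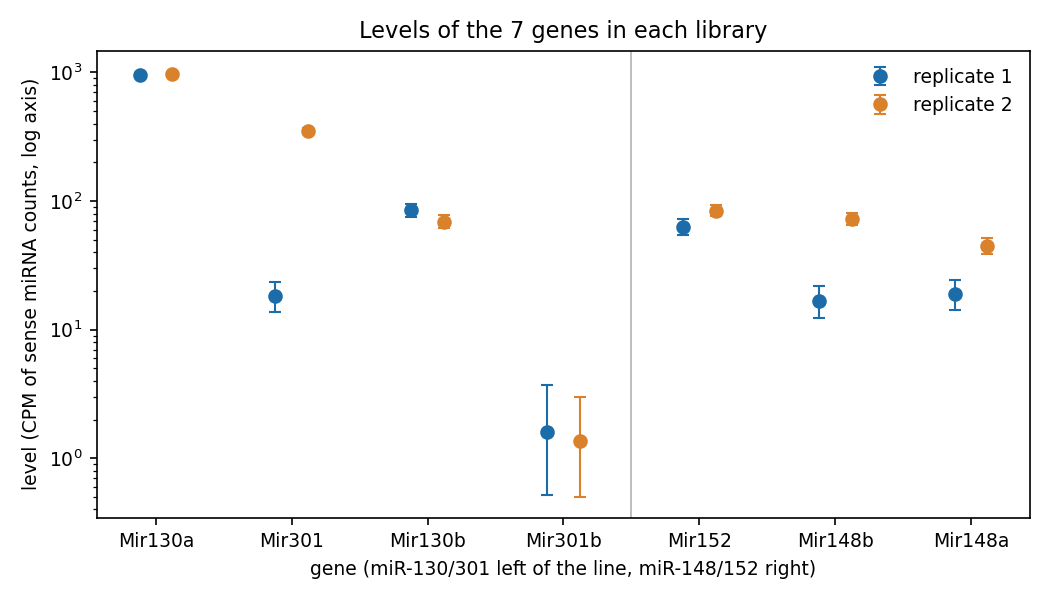
Level of each gene in CPM on a log axis, with replicate 1 in blue, replicate 2 in orange and bars for the exact 95% counting interval. Mir130a sits near 959 and 979 CPM, while Mir301 is at 18.2 and 351 CPM in replicates 1 and 2.

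The makeup of each family differed between the libraries accordingly. Mir130a supplied 90.2% of the miR-130/miR-301 counts in replicate 1 (interval 89.1% to 91.2%) and 69.9% in replicate 2 (68.7% to 71.0%). Mir301 supplied 1.71% (1.30% to 2.21%) and 25.1% (24.0% to 26.2%), and Mir130b 7.95% and 4.93%. Without Mir301, the other 3 genes of that family held 0.104% of all counts in replicate 1 and 0.105% in replicate 2. Mir301 was picked for its difference between these libraries, so nothing is read from leaving it out. In the miR-148/miR-152 family, Mir152 supplied 64.0% (58.3% to 69.3%) and 41.8% (38.6% to 45.2%), and Mir148b 16.9% (12.9% to 21.5%) and 35.9% (32.8% to 39.2%). Mir148a kept a like part, 19.2% (14.9% to 24.0%) and 22.2% (19.5% to 25.1%). Without Mir148b, the other 2 genes of the family held 0.00816% and 0.0129% of all counts, still lower in replicate 1.

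**Figure D2:**
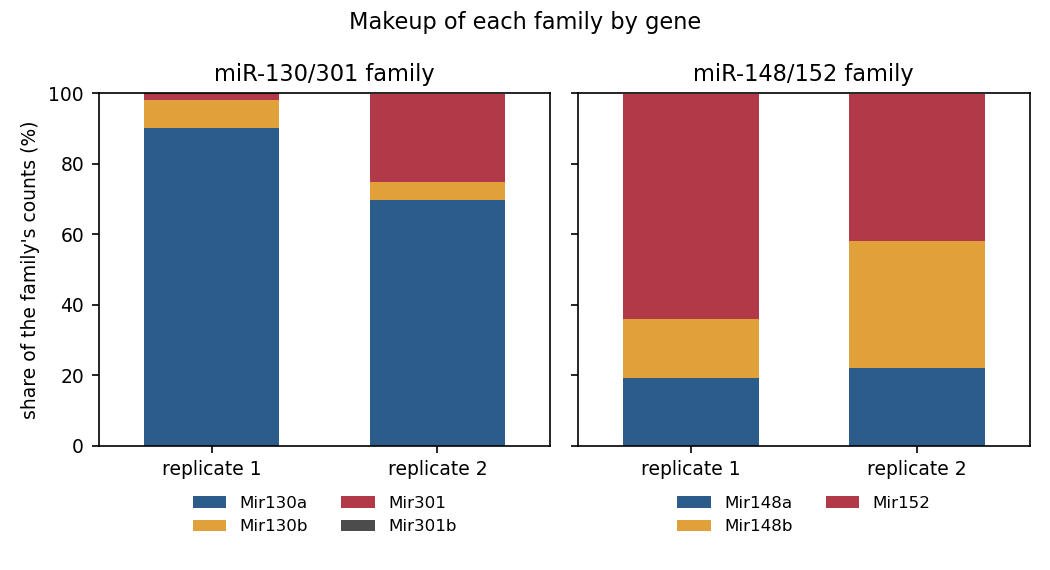
Share of each family's counts, in percent, that each of its genes supplied in replicate 1 and replicate 2, as stacked bars. Mir301 fills 1.71% of the miR-130/miR-301 bar in replicate 1 and 25.1% in replicate 2, and Mir301b is too low to be seen.

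Ratios between the libraries were taken after TMM scaling, as replicate 1 over replicate 2 on the log2 scale, with 0.5 CPM added to both. They were -4.17 for Mir301 (counting interval -4.61 to -3.82), -2.02 for Mir148b (-2.51 to -1.63) and -1.16 for Mir148a (-1.63 to -0.75). That is 18.0, 4.07 and 2.23 times higher in replicate 2. The ratio was -0.35 for Mir152 (-0.61 to -0.10) and 0.36 for Mir130b (0.12 to 0.61). Mir130a was at 0.04 (-0.03 to 0.11), a value that turned to -0.03 on library sums without TMM and to -0.15 on all reads. For Mir301b it was 0.22, with an interval from -1.76 to 2.26 that holds a difference of either sign.

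Among all 384 genes with at least 10 counts in both libraries, 44 lay past 2-fold in either direction, or 11.5%, and 17 lay past 2-fold with the lower level in replicate 1, or 4.43%. Of the 6 members in that number, 3 lay past 2-fold (Mir301, Mir148b and Mir148a), all lower in replicate 1, and 3 did not. The set was chosen on this difference, so nothing is read from these counts. The median log2 ratio was -0.76 over the 6 members and 0.04 over the 384 genes. In the order of ratios Mir301 was the lowest of the 384 genes, Mir148b was in place 4 from the lowest end and Mir148a in place 11, while Mir152, Mir130a and Mir130b were in places 88, 194 and 280. A filter on the mean of the libraries, at 100 counts, also kept 6 members, of which 3 lay past 2-fold, against 10.8% of 269 genes. Mir301, Mir148b and Mir148a reached that mean only through their counts in replicate 2, where they were higher. The filter was also chosen after the data were seen, so nothing is read from it. A minimum of 100 counts in each library drops Mir301, Mir148b and Mir148a because of their counts in replicate 1, and leaves 0 of 3 members past 2-fold, against 8.73% of 252 genes.

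**Figure D3:**
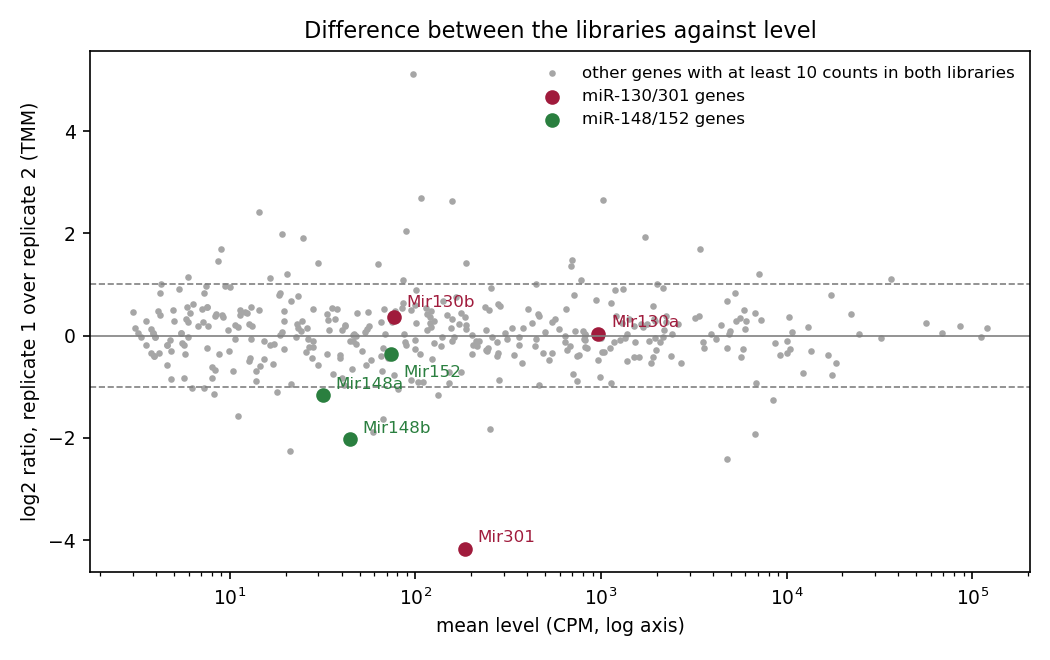
Log2 ratio of replicate 1 over replicate 2 against mean CPM (log axis) for the 384 genes with at least 10 counts in both libraries, with members coloured by family and dashed lines at 2-fold. Mir301 at -4.17 is the lowest point of the plot, and Mir130a at 0.04 lies on the line of no difference.

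**Figure D4:**
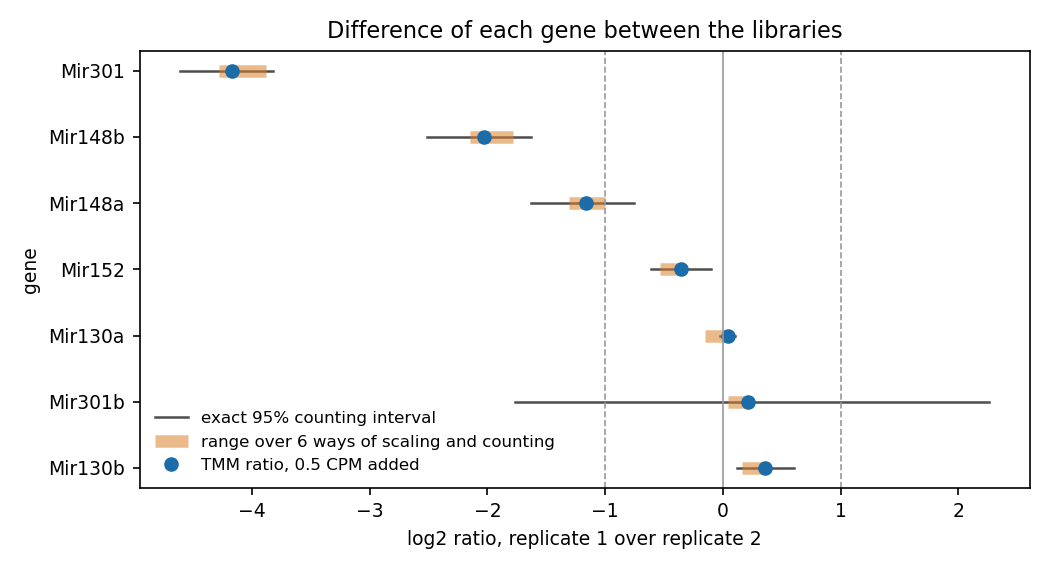
Log2 ratio of replicate 1 over replicate 2 for each gene (points), with the exact 95% counting interval (thin lines) and the range over 6 ways of scaling and counting (wide bars). Mir301, Mir148b and Mir148a stay below -1 in all 6, and Mir130a crosses 0.

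Likeness to Mir301 and Mir148b was measured as the absolute difference of log2 ratios over the 2 libraries. The search took 252 genes with at least 100 counts in each library. Mir301 and Mir148b themselves had 57 and 52 counts in replicate 1, so genes as low as they were there were not searched. Nearest to Mir148b were Mir99b, a miR-99/100 gene with 2703 CPM in replicate 1 and 10743 in replicate 2 (log2 ratio -1.92), Mir10a of the Hox clusters (107 and 399 CPM, -1.82) and Mir195a of the miR-15/16 family (1454 and 8125 CPM, -2.41). Their distances from Mir148b were 0.10, 0.20 and 0.39. The same 3 genes were nearest to Mir301, but at distances of 1.75 for Mir195a, 2.25 for Mir99b and 2.34 for Mir10a, so no gene of that depth came close to it. A pair of libraries gives a single difference per gene, and likeness on it is a description of these libraries.

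Other genes with the seed of either family added nothing to the counts. Of 1738 mature sequences searched, 7 carried the miR-130/miR-301 seed, 3 of them from members and the rest from Mir130c, Mir721, Mir6341 and Mir6389. These 4 genes were at 0 counts in both libraries, which puts their upper limits at the 0.957 and 0.685 CPM given above. Mir301b has no 3p arm in the reference and so could not enter the search, though its hairpin holds the bases AGUGCAA. The miR-148/miR-152 seed occurred in 3 mature sequences, those of Mir148a, Mir148b and Mir152. The 6 shared bases AGUGCA lay in the seed of a further 2, from Mir291b, at 0 counts, and Mir350, whose miR-350-5p arm carries them. Mir350 had 422 and 630 counts over its whole hairpin, or 135 and 144 CPM, 2 values close to each other. How much of this came from the 5p arm was not measured.

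On the other strand Mir130a had 1 count in replicate 1 and 3 in replicate 2, and the other 6 genes had 0 in both. No annotated gene overlaps a member on the opposite strand.

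Other gene lists were counted by the same rule and are read against the 11.5% of all 384 genes past 2-fold. In the miR-17-92 and paralog clusters, whose members promote proliferation, 8 of 15 genes reached 10 counts in each library and 0 of these 8 lay past 2-fold, with log2 ratios from -0.57 to 0.39. In the miR-29 family, which is known for targeting the de novo DNA methyltransferases, 4 of 4 genes reached the minimum and 0 lay past 2-fold, from -0.76 to 0.03, with a median of -0.54. With so few genes in each list, a count of 0 is near the background share.

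Some marker lists of other cell types differed between the libraries in the direction opposite to that of the miR-148/miR-152 genes, and others in the same direction. The list called epithelial joined Mir200a, Mir200b, Mir200c, Mir141 and Mir429 with Mir183, Mir96 and Mir182. It had 8 of 8 genes detected and summed to 801 and 201 CPM in replicates 1 and 2. Of its 6 genes with at least 10 counts in each library, 5 lay past 2-fold, higher in replicate 1. These were Mir200a, Mir200c, Mir429, Mir183 and Mir182, with Mir183 at 270 and 45.5 CPM, and Mir200b was not among them. Over all 384 genes, 27 lay past 2-fold with the higher level in replicate 1, or 7.03%. The choroid plexus and ependyma list summed to 3072 and 1165 CPM, with Mir449b at 0 and 2 of 5 genes past 2-fold, higher in replicate 1. These 2 were the neighbouring genes Mir34b and Mir34c, and Mir34c alone was at 1747 and 292 CPM. Mir204, Mir211 and Mir449a lay within 2-fold. Endothelial Mir126a was at 12521 and 22475 CPM, a log2 ratio of -0.77, lower in replicate 1 like the miR-148/miR-152 genes. The neuronal list had 0 of 14 genes past 2-fold, the oligodendrocyte list (6799 and 6685 CPM) 0 of 3, the myeloid list (460 and 479 CPM) 0 of 3, the red blood cell list (70.2 and 78.4 CPM) 0 of 2 and the smooth muscle list (8170 and 6864 CPM) 0 of 2. Mir122 of liver was at 28.4 and 38.4 CPM, a log2 ratio of -0.36, also lower in replicate 1. Unmapped reads were 26.5% in replicate 1 and 18.1% in replicate 2. The part of cell makeup or read mapping in the differences of Mir301 and Mir148b was not tested.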

How the data were processed

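Small RNA libraries (RNA below 30 nt) from 2 biological replicates of 1 group were used. The authors deposited 1 table per library with raw read counts for 2202 miRNA genes in 3 columns, below 4 summary lines, and the deposited notes name mm10 and annotation M21. The aligner, the counter and any read trimming were not given in the sources used here. Of the strand columns, that with more counts was taken as the sense strand (93.4% and 91.9% of both strand columns). The summary lines, which include unmapped reads (26.5% and 18.1%) and multimapping reads (36.3% and 41.7%), stayed out of library sizes, and ambiguous reads in the sense column were 0.

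All 2202 identifiers matched M21. CPM was computed over sense counts. TMM factors (0.976 and 1.02) came from edgeR 4.0.16 in R 4.3.3, over 459 genes with at least 10 counts in either library. Ratio intervals are exact binomial limits without the added 0.5 CPM. Hosts are M21 genes that overlap a member on either strand. DESeq2 1.42.0 size factors, library sums, all reads, 5 CPM added, other count minimums and unstranded counts were alternatives. The ratio code was checked on simulated counts. Python 3.11.15, numpy 2.4.6, scipy 1.17.1 and matplotlib 3.10.9 were used.

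The members, lists and rules were chosen with earlier results of these data known. Genes named are the 7 members, genes found by the seed search and the genes next to each member in mean CPM. Also named are the 3 genes nearest in ratio to Mir301 and Mir148b, hosts, neighbours within 10000 bp and some marker genes. With 1 group, no contrast between conditions was tested.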

Additional observations from a re-analysis of the deposited data

How the results depend on the processing

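Of the 7 log2 ratios between the libraries, 6 had the same sign under the 5 alternatives of scaling, added CPM and strand. Mir301 ranged from -4.28 to -3.88 and Mir148b from -2.15 to -1.78, while Mir148a was 2.01 to 2.47 times higher in replicate 2, lowest with 5 CPM added. Mir130a turned sign, at -0.03 on library sums and -0.15 on all reads. The number of genes past 2-fold was 22 at 100 counts in both libraries, 176 at 1 count in either and 29 at a mean of 100 counts, a filter chosen after seeing the data. The first of these tests fewer genes and left 0 members past 2-fold. Over all reads of a library, the mean share was 0.0408% for the miR-130/miR-301 family and 0.00500% for the miR-148/miR-152 family, lower by construction. Each family share stayed within 1 SD of its mean in unstranded counts and, as with any 2 values, in either library alone. Leaving out a library leaves no ratio. No paired analysis was possible because there is 1 group. Mir301b, at 5 and 6 counts, is too shallow for a difference between the libraries to be measured.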
